A study of Mus musculus with 6 samples.

Results

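Carriers of peptides and amino acids in the small intestine, 10 genes in all, were followed in mice without intestinal alkaline sphingomyelinase (alk-SMase, encoded by Enpp7). They were chosen by function, as transporters or transporter subunits of the absorptive cell, and all 10 had a row among the 12402 genes that could be placed in the table of 22700 rows. Placing was needed because 12396 of these 12402 identifiers were deposited beside the values of another gene, and every value of a named gene rests on that step. Mucosal RNA from the middle part of the small intestine was sequenced, 1 library for each mouse. The groups were 3 alk-SMase knockout (KO) mice, K79S, K82S and K86S, and 3 wild-type (WT) mice, W83S, W89S and W90S, all of the C57BL/6 strain. In the KO mice an exon of Enpp7 was removed with Cre recombinase, which shifts the reading frame. All mice ate standard pellets, and neither age nor sex is given in the sources used here. The values are FPKM, which divide a gene’s fragments by transcript length and by the library’s mapped reads, so that levels are per length and may be set side by side between genes.

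Protein in a meal reaches the absorptive enterocyte as short peptides and free amino acids. Peptides enter through a proton-coupled carrier of the brush border, and free amino acids through separate carriers for neutral, imino, dibasic and acidic side chains. A different set of exchangers in the basolateral membrane passes them on to the blood. Several of these carriers work as pairs of a light chain, which moves the amino acid, and a heavy chain, which brings it to the membrane.

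The brush border members are Slc15a1, Slc6a19, Slc6a20a, Slc7a9, Slc3a1 and Slc1a1. Slc15a1 (ENSMUSG00000025557.10) encodes the peptide carrier PEPT1 and maps to chromosome 14 (121459621 to 121505252 in GRCm38 with GENCODE M21, minus strand). Slc6a19 (ENSMUSG00000021565.16), the main sodium-coupled carrier of neutral amino acids and the gene of Hartnup disorder, maps to chromosome 13 (73679745 to 73704865, minus strand). Slc6a20a (ENSMUSG00000036814.13), which carries proline and other imino acids, maps to chromosome 9 (123634770 to 123678885, minus strand). Slc7a9 (ENSMUSG00000030492.16) and Slc3a1 (ENSMUSG00000024131.7) are the light and the heavy chain of the exchanger for cystine and dibasic amino acids that is lost in cystinuria. They lie on the plus strands of chromosome 7 from 35448796 to 35466036 and of chromosome 17 from 85028376 to 85064236. Slc1a1 (ENSMUSG00000024935.10), a carrier of glutamate and aspartate, maps to chromosome 19 (28835049 to 28913960, plus strand).

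The basolateral members are the light chains Slc7a7 and Slc7a8 and their common heavy chain Slc3a2. Slc7a7 (ENSMUSG00000000958.10), which exports dibasic amino acids and is the gene of lysinuric protein intolerance, maps to chromosome 14 (54369442 to 54417780, minus strand). Slc7a8 (ENSMUSG00000022180.7), an exchanger of neutral amino acids, lies near it on the same strand from 54722209 to 54781946. Slc3a2 (ENSMUSG00000010095.13) maps to chromosome 19 (8706882 to 8723369, minus strand). The last member, Slc36a1 (ENSMUSG00000020261.15), is a proton-coupled carrier of small amino acids found at the brush border and on lysosomes, and maps to chromosome 11 (55204350 to 55236330, plus strand).

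All 10 members had a RefSeq promoter window. The 250 bases before the RefSeq start are printed for the 3 members whose window lies wholly outside the GENCODE gene. These are the member with the highest level (Slc15a1), the one member whose KO and WT libraries did not overlap (Slc3a1) and the one with the widest ratio of highest to lowest library (Slc36a1). Capitals mark a match to 1 of 5 motifs searched on both strands. The motifs were CAAAGTC of HNF4, GTTAAT of HNF1, TTTATG of CDX, GATAAG of GATA factors and TGATGCAA of the amino acid response element, and none overlaps another.
Slc15a1, chr14:121505255-121505504, minus strand (GRCm38.p6): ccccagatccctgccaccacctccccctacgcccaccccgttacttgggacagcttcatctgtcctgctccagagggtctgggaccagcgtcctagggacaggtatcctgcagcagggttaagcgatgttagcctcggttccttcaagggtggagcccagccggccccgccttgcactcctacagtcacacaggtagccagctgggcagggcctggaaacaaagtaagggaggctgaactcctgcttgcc
Slc3a1, chr17:85028097-85028346, plus strand (GRCm38.p6): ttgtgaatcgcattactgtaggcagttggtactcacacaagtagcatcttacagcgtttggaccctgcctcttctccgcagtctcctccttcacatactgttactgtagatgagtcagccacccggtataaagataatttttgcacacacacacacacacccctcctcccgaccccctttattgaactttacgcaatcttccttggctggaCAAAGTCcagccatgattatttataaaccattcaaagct
Slc36a1, chr11:55204090-55204339, plus strand (GRCm38.p6): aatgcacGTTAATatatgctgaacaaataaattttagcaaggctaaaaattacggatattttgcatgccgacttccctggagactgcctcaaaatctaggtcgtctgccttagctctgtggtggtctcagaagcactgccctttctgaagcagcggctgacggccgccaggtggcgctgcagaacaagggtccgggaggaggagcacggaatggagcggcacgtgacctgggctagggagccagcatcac
The window of Slc3a1 held CAAAGTC, which 3.84% of the 32851 RefSeq windows of the same length hold, from 39 to 33 bases before the start. Slc36a1 and Slc6a20a each held GTTAAT (6.43% of all windows), Slc7a9 held GATAAG (6.55%) and Slc7a7 held TGATGCAA (0.792%). TTTATG, held by 10.8% of all windows, was found in 0 of the 10. The windows of Slc6a19, Slc3a2 and Slc7a9 lie wholly inside the GENCODE gene. Their RefSeq starts are 12229, 9472 and 296 bases from its 5' end. A match describes the letters of the window and is not a binding site.

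The libraries differed within each genotype, and the causes were not tested. Of the 12 genes of stomach and pancreas on the list, 7 could be placed, and they summed to 25950 FPKM (5.37% of the library) in W83S against 1.08 to 5.55 FPKM in the other 5 libraries. They were led by Tff1 and Gkn1 of the gastric surface, which had 15727 and 6251 FPKM in W83S. K82S and W89S, 1 of each genotype, had the lowest Fabp1, a fatty acid binding protein highest in proximal intestine (972 and 1255 FPKM, against 1576 to 5415 FPKM in the other 4). Markers of the distal intestine did not move as one in these libraries. Slc51b, a basolateral bile acid carrier, was highest in them (715 and 404 FPKM, against 121 to 216 FPKM), and Enpp3 was lowest (43.4 and 39.6 FPKM, against 82.2 to 183 FPKM). The enterocyte markers Fabp2 and Anpep were at 5432 to 11224 FPKM and 1504 to 3977 FPKM over the 6 libraries, so both were abundant in each library. Enpp7 itself measured 605 FPKM in K79S, 129 in K82S, 669.7 in K86S, 406 in W83S, 667 in W89S and 495 in W90S. These values cover the whole gene and cannot tell whether an exon is missing.

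Over the 6 libraries Slc15a1 had the highest level of the members, with a mean of 309 FPKM, and Slc1a1 the lowest, with 7.35 FPKM. Between them stood Slc6a19 (204 FPKM), Slc3a1 (169 FPKM), Slc3a2 (131 FPKM), Slc7a7 (122 FPKM), Slc7a9 (119.6 FPKM), Slc7a8 (86.9 FPKM), Slc6a20a (35.2 FPKM) and Slc36a1 (27.1 FPKM). Slc15a1 was above Slc6a19 in 6 of 6 libraries, and no other neighbours in this order kept it in every library. Slc7a7 was above Slc7a9 in 3 of 6 libraries and Slc6a20a above Slc36a1 in 3 of 6, so neither pair could be ranked. Slc3a1, Slc7a9, Slc7a8 and Slc36a1 were each above the next member in 5 of 6 libraries, and Slc6a19 and Slc3a2 in 4 of 6. The sum of the 10 members was 1695 FPKM in K79S, 1035 in K82S and 1438 in K86S, against 939.5 in W83S, 1043 in W89S and 1112 in W90S. K82S was thus within the WT range and the other KO libraries above it.

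**Figure D1:**
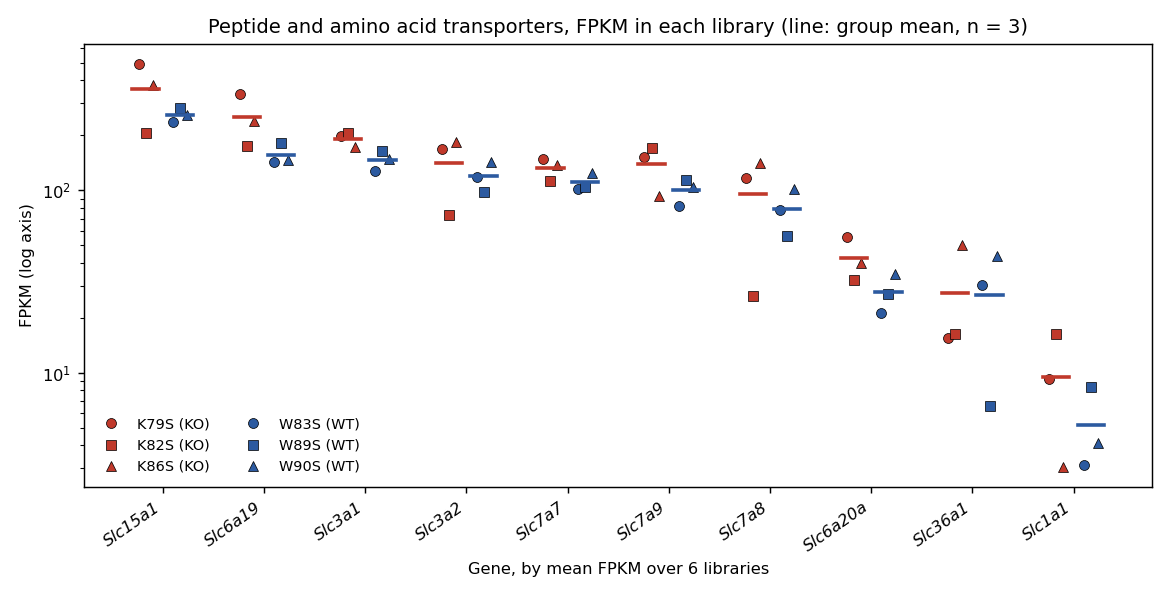
FPKM of each member (log axis) in the 3 KO libraries (red) and the 3 WT libraries (blue), with genes ordered by their mean over the 6 libraries and a line at each group mean. Slc15a1 stood highest at 309 FPKM on average and Slc1a1 lowest at 7.35 FPKM, and the red and blue points overlapped for 9 of the 10 genes.

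KO and WT were compared to see how the loss of alk-SMase goes with the expression of these carriers. The mean FPKM was higher in KO for all 10 members, a count for which no share of all rows was computed. On the log2(FPKM + 1) scale the mean was higher in KO for 9, beside 42.3% of the 13089 rows tested. None of these differences passed the test. It was a limma fit over all rows, placed or not, with a call at an adjusted p under 0.05 together with a change of more than 1.5-fold in either direction. Of the members 0 of 10 were called, beside 0.00764% of all rows, and 0 of 10 had an unadjusted p under 0.05, beside 12.5% of all rows (2.87% with the higher mean in KO). The count at an unadjusted p was 3 of 10 after rescaling to a common FPKM sum (Slc6a19, Slc6a20a and Slc3a1, beside 8.08% of rows higher with such a p), 3 of 10 with array weights (Slc15a1, Slc6a19 and Slc6a20a, beside 4.58%) and 2 of 10 without the trend (Slc6a19 and Slc3a1, beside 2.99%), all higher in KO. Rescaling also turned the balance of all rows, to 59.4% with a higher KO mean, 14.3% with all KO above all WT and 5.84% with all KO below, while the members higher in mean went from 9 to 10. The 1 row called was Gm29008, listed at 0 in the KO libraries and at 4.26 to 4.75 FPKM in the WT libraries (adjusted p = 0.00616 from limma). The median log2 fold change of the members was 0.39, beside -0.06 over all rows. The highest library was a KO library for each of the 10 members, K79S for 4, K82S for 3 and K86S for 3. W83S, the library with stomach transcripts, was the lowest for 5, and without it the median log2 fold change of the members was 0.31. How often each library was the highest or lowest over all rows was not computed. The KO and WT ranges overlapped for 9 of the 10 members. In bulk mucosa, fewer cells of a type and less RNA per cell cannot be told apart.

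The peptide carrier Slc15a1 measured 492 FPKM in K79S, 205 in K82S and 377 in K86S, against 236 in W83S, 282 in W89S and 259.9 in W90S. K79S and K86S lay above all WT libraries and K82S below them. The means were 358 ± 144 FPKM for KO and 259 ± 23.1 FPKM for WT (SD, n = 3), and the log2 fold change was 0.38 with a 95% confidence interval from -0.41 to 1.17 (adjusted p = 0.640 from limma).

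The neutral amino acid carrier Slc6a19 measured 339 FPKM in K79S, 176 in K82S and 238 in K86S, against 142 in W83S, 181 in W89S and 147 in W90S. The groups overlapped only in that K82S lay 4.92 FPKM under W89S. The means were 251 ± 82.2 FPKM for KO and 157 ± 21.0 FPKM for WT (SD, n = 3). The log2 fold change of 0.63 (1.55-fold) was the largest of the 10 members in the fit with all libraries, with an interval from -0.01 to 1.28 (adjusted p = 0.393 from limma).

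The proline carrier Slc6a20a measured 55.6 FPKM in K79S, 32.2 in K82S and 40.0 in K86S, against 21.3 in W83S, 27.2 in W89S and 34.6 in W90S. Here K82S lay under W90S alone. The log2 fold change was 0.59 (1.51-fold, interval from -0.04 to 1.22, adjusted p = 0.396 from limma). Its paralogue Slc6a20b, whose reads may be split with it in part, was low at 1.47 to 3.95 FPKM. For Slc6a20b each KO library exceeded each WT library (log2 fold change 0.60, adjusted p = 0.393 from limma).

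Both subunits of the cystine and dibasic amino acid exchanger were highest in K82S. The heavy chain Slc3a1 measured 198 FPKM in K79S, 206 in K82S and 172 in K86S, against 127 in W83S, 165 in W89S and 148 in W90S. It was the 1 member of 10 in which each KO library exceeded each WT library, as in 5.9% of all rows (11.3% had all KO below all WT). The gap between the groups, from W89S to K86S, was 7.21 FPKM. The log2 fold change was 0.39 (1.31-fold, interval from -0.04 to 0.82, adjusted p = 0.401 from limma), and a two-sided exact permutation test gave p = 0.1, the smallest that 3 libraries against 3 allow.

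The light chain Slc7a9 measured 153 FPKM in K79S, 171 in K82S and 93.5 in K86S, against 81.6 in W83S, 114 in W89S and 104 in W90S. K79S and K82S lay above all WT libraries, while K86S lay between W83S and W90S. The log2 fold change was 0.44 (interval from -0.21 to 1.09, adjusted p = 0.499 from limma).

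Slc1a1, the carrier of glutamate and aspartate, was the weakest member and one of the most variable, at 9.20 FPKM in K79S, 16.3 in K82S and 3.05 in K86S, against 3.13 in W83S, 8.31 in W89S and 4.12 in W90S. Its highest library in KO was K82S and its highest in WT was W89S, and its lowest library of all was K86S. The log2 fold change of 0.62 had an interval from -0.71 to 1.96 (adjusted p = 0.652 from limma).

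On the basolateral side, Slc7a7 differed least between libraries, with 148 FPKM in K79S, 112 in K82S and 138 in K86S, against 102 in W83S, 105 in W89S and 125 in W90S. The highest of the 6 was 1.45 times the lowest. K82S lay under W90S and above the other WT libraries, and the log2 fold change was 0.26 (interval from -0.18 to 0.70, adjusted p = 0.559 from limma).

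The heavy chain Slc3a2 measured 169 FPKM in K79S, 73.4 in K82S and 184 in K86S, against 118 in W83S, 98.3 in W89S and 143 in W90S. Its partner Slc7a8 measured 116 FPKM in K79S, 26.5 in K82S and 142 in K86S, against 78.4 in W83S, 56.0 in W89S and 102 in W90S. For both genes K79S and K86S lay above all WT libraries and K82S below all of them. The log2 fold change was 0.15 for Slc3a2 (interval from -0.74 to 1.05) and -0.01 for Slc7a8 (interval from -1.51 to 1.498), with adjusted p = 0.884 and 0.997 from limma. For Slc7a8 the mean FPKM was 1.20 times as high in KO while the mean on the log2 scale was not higher, where the low value of K82S weighs more.

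Slc36a1 spread most, with 15.6 FPKM in K79S, 16.4 in K82S and 49.9 in K86S, against 30.3 in W83S, 6.55 in W89S and 43.7 in W90S. The highest library was 7.62 times the lowest, and both groups covered most of that range. The means were 27.3 ± 19.6 FPKM for KO and 26.8 ± 18.8 FPKM for WT (SD, n = 3), and the log2 fold change of 0.16 had an interval from -1.62 to 1.94 (adjusted p = 0.940 from limma).

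**Figure D2:**
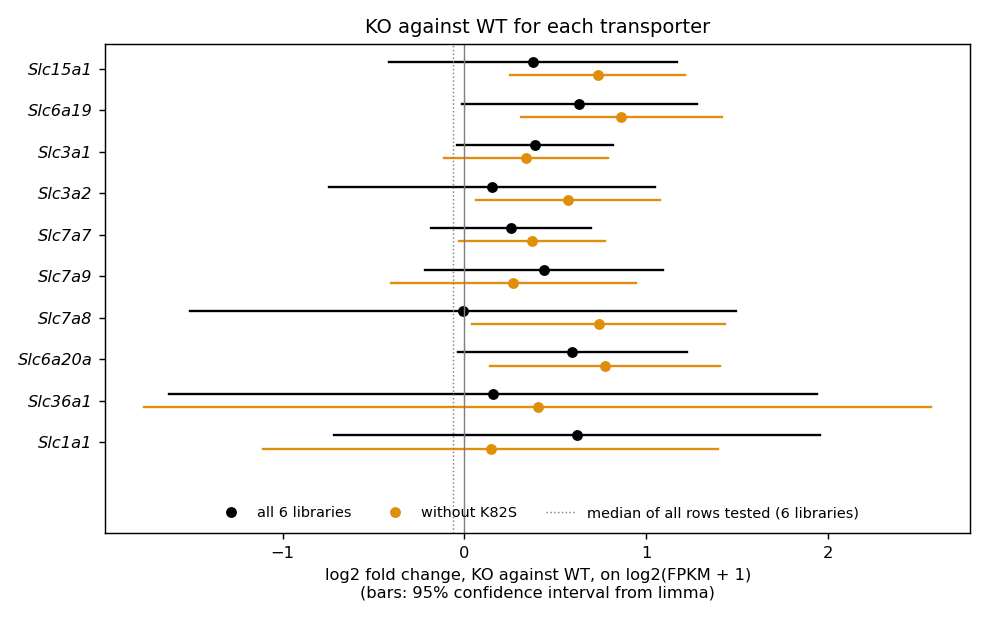
log2 fold change (KO minus WT mean of log2(FPKM + 1)) of each member, with the 95% confidence interval from limma, over all 6 libraries (black) and without K82S (orange). With all libraries each of the 10 intervals held 0, and without K82S 5 of 10 lay above 0, although 0 of 10 members passed the adjusted threshold in either case.

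Which libraries were used changed the size of these differences. Without K79S, the highest library for 4 members, the log2 fold change of Slc15a1 was 0.11 and those of Slc6a19 and Slc6a20a were both 0.39. That of Slc1a1 ran from 0.14 without K82S to 1.19 without K86S. Of the libraries left out singly, K82S gave the most members with all KO above all WT. Leaving out any library cannot lower that count, so its rise does not test a difference. Without K82S the mean was higher in KO for all 10 members, beside 40.1% of the 12764 rows then tested. In 7 of 10 both remaining KO libraries exceeded each WT library, beside 11.9% of rows (32.3% had them below). The 7 were Slc15a1, Slc6a19, Slc6a20a, Slc3a1, Slc7a7, Slc3a2 and Slc7a8. The median log2 fold change of the members was then 0.49, beside -0.09 over all rows. By limma 5 of 10 had an unadjusted p under 0.05, all of them higher, beside 4.1% of rows that were higher with such a p (25.7% in either direction). Members with such a p, all higher, numbered 2 without K86S (476 of 12951 rows) and 1 without W90S (232 of 12848 rows). They numbered 0 without K79S, W83S or W89S. Slc6a19 came nearest to a call, with a log2 fold change of 0.86 (adjusted p = 0.0708 from limma), followed by Slc15a1 with 0.73 (adjusted p = 0.0761). None of the 10 was called, where 9.28% of all rows were (0.4% higher and 8.88% lower). All KO were above all WT for 7 members as well without K82S and W83S (14.4% of rows). The same count came without K82S and W89S (19.4% of rows). Leaving out a further library cannot lower it, so these settings do not test the count of 7. In both settings 0 of 10 were called (8.88% and 0.0243% of rows). Marker lists of other cells moved too when K82S was left out. Without K82S, 9 of 10 absorptive enterocyte genes had a higher mean in KO and 6 had all KO above all WT (median 0.40), while 6 of 6 crypt and proliferation genes had all KO below all WT (median -1.17). Their part in the members' values was not tested.

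The members formed a graded series by their values in K82S. For Slc1a1, K82S stood 1.26 above the mean of the 6 libraries on the log2(FPKM + 1) scale, and for Slc7a9 and Slc3a1 0.56 and 0.30 above it. Slc7a7, Slc6a20a and Slc6a19 were near their own mean in K82S (-0.10, -0.06 and -0.14), while Slc36a1 (-0.41), Slc15a1 (-0.52), Slc3a2 (-0.76) and Slc7a8 (-1.495) were below it. Slc36a1 was lower still in W89S (-1.62), which no other member had as its lowest library.

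Genes that vary along the length of the intestine differed between the libraries too. Slc51b was highest in K82S among the KO libraries and in W89S among the WT libraries, as were Slc1a1, Slc7a9 and Slc3a1. Enpp3 of the same distal list was the lowest there in both groups, as was Slc7a8. Lactase (Lct), the brush border enzyme of milk sugar, was chosen after its values were seen, and measured 456 FPKM in K79S, 76.3 in K82S and 490 in K86S, against 243 in W83S, 163 in W89S and 285 in W90S. Its order of the 6 libraries was that of Slc7a8. Of the 8 genes on the proximal list 7 were tested, with 2 higher in mean in KO and a median log2 fold change of -0.44 (-0.02 without K82S), and its most abundant genes were Fabp1 (-0.73) and Rbp2 (-0.38), a retinol binding protein. Of the 7 on the distal list 4 could be placed and tested, with 4 higher and a median of 0.34. Its most abundant genes were Slc51b (0.21, and -0.50 without K82S) and Enpp3 (0.39), and the largest difference was that of Cubn (1.17), a receptor for vitamin B12 with intrinsic factor, with all KO above all WT. By limma none of these 11 was called, and 1, Cubn, had an unadjusted p under 0.05, beside 12.5% of all rows. The proximal list summed to 2152 to 7554 FPKM in KO and 3031 to 8995 FPKM in WT, and the distal list to 366 to 814 FPKM and 281 to 508 FPKM. The part of these markers in the members' values was not tested.

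**Figure D3:**
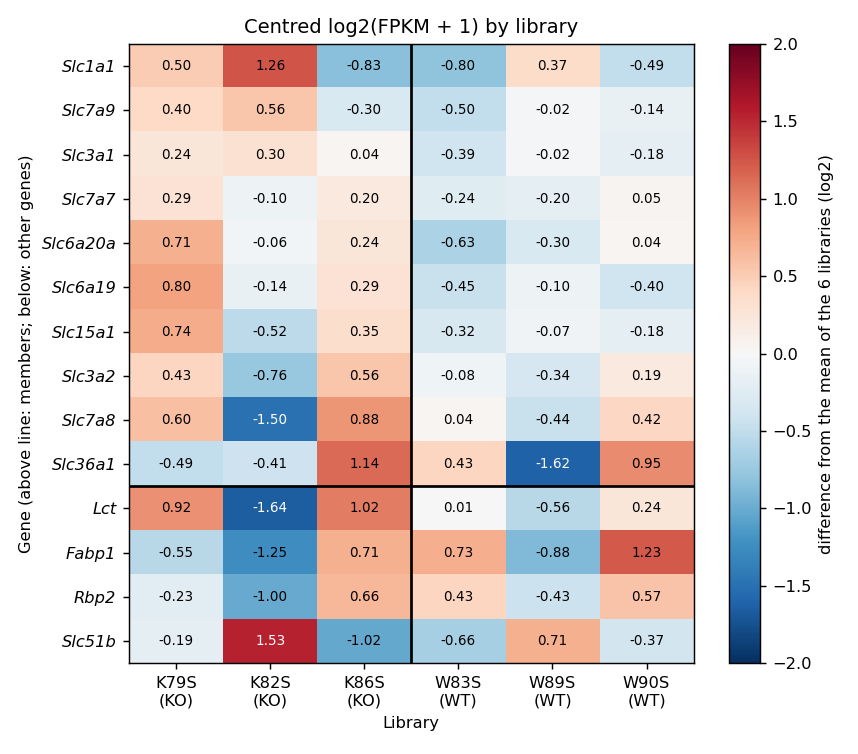
Difference of log2(FPKM + 1) from the mean of the 6 libraries for each member (above the line) and for Lct, Fabp1, Rbp2 and Slc51b (below it), with KO libraries left and WT libraries right of the vertical line. In K82S the members ran from 1.26 (Slc1a1) to -1.495 (Slc7a8), and Lct stood at -1.64 and Slc51b at 1.53.

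Likeness between members was taken as the root mean square difference of these centred profiles over the 6 libraries. Slc15a1 and Slc6a19 were nearest to each other (0.189), as were the partners Slc7a9 and Slc3a1 (0.194). Slc6a20a was nearest to Slc6a19 (0.219), Slc7a7 to Slc3a1 (0.221), Slc3a2 to Slc15a1 (0.279) and Slc7a8 to its heavy chain Slc3a2 (0.354). Slc1a1 and Slc36a1 were the least alike (1.59). Among the 12084 other genes that were placed and tested, the mean profile of the 10 members was closest to those of Slc25a15 (0.0599), the mitochondrial ornithine carrier, Tmbim6 (0.0723), Gm8909 (0.0723), Lpcat3 (0.0732), a lysophospholipid acyltransferase, and Cx3cl1 (0.0736), a chemokine. These distances are a description over 6 libraries, and no p is given for them.

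A ratio of light to heavy chain within a library does not depend on how the libraries are scaled. The ratio of Slc7a9 to Slc3a1 FPKM was 0.774, 0.830 and 0.543 in K79S, K82S and K86S and 0.642, 0.691 and 0.707 in W83S, W89S and W90S. It varied less over the 6 libraries (SD 0.21 on the log2 scale) than Slc7a9 (0.41) or Slc3a1 (0.26). Slc7a8 to Slc3a2 also varied less (0.40) than Slc7a8 (0.88) or Slc3a2 (0.50). Slc7a7 to Slc3a2 (0.36) varied more than Slc7a7 (0.22) and less than Slc3a2. Slc7a8 to Slc3a2 was 0.690, 0.361 and 0.771 in KO and 0.665, 0.570 and 0.715 in WT, and K82S was the lowest. Slc7a7 to Slc3a2 was 0.876, 1.53 and 0.751 in KO and 0.865, 1.07 and 0.874 in WT, so that K82S was the highest. KO differed from WT by 0.05, -0.17 and 0.11 on the log2 scale for the 3 ratios in this order, with exact permutation p of 0.9, 0.9 and 0.8 (adjusted 0.9 for each over the 3). In each of the 3 the KO and WT libraries overlapped.

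**Figure D4:**
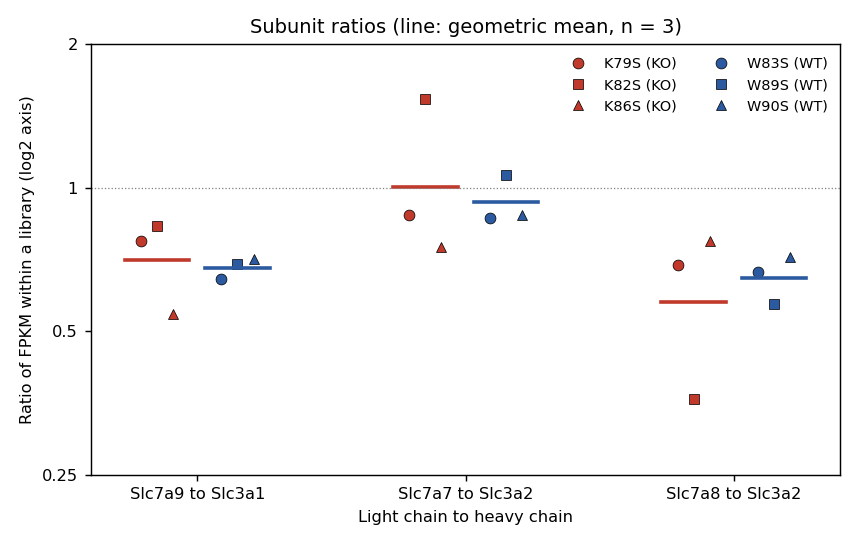
Ratio of light chain to heavy chain FPKM within each library (log2 axis) for the 3 subunit pairs, with KO in red, WT in blue and a line at each geometric mean. K82S stood apart with 1.53 for Slc7a7 to Slc3a2 and 0.361 for Slc7a8 to Slc3a2, while the WT libraries lay between 0.570 and 1.07 for these pairs.

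Of 26 other transporters and partner proteins of the same function, 14 could be placed and 13 were tested. In mean 5 were higher in KO, beside 42.3% of all rows, and 8 lower, with a median log2 fold change of -0.19. Without K82S 7 were higher (40.1% of rows), 4 had all KO above all WT (11.9% of rows) and 5 all KO below (32.3% of rows). The median was then 0.05. By limma, with all libraries, 0 of 13 were called (0.00764% of rows), with 2 at an unadjusted p under 0.05 (12.5% of rows).

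Slc43a2 and Slc16a10, basolateral carriers of large neutral and of aromatic amino acids, had the pattern of Slc3a2 and Slc7a8. Slc43a2 had 139.5, 56.5 and 108 FPKM in KO and 69.2, 69.0 and 94.5 FPKM in WT (log2 fold change 0.30, adjusted p = 0.726 from limma). Slc16a10 had 54.8, 18.3 and 56.1 FPKM in KO and 32.6, 30.6 and 44.3 FPKM in WT (log2 fold change 0.12, adjusted p = 0.924 from limma). In both genes K79S and K86S were above all WT libraries and K82S below them. The taurine carrier Slc6a6 ranged from 20.4 to 29.4 FPKM and the sodium-proton exchanger Slc9a3 from 6.13 to 36.1 FPKM, with overlapping groups.

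Of the 13, Slc7a5 and Slc7a1 had all KO libraries below all WT libraries, as did 11.3% of all rows, and both were at a low level. Slc7a5, a light chain of Slc3a2 typical of dividing cells, measured 0.669 FPKM in K79S, 1.81 in K82S and 0.669 in K86S, against 2.11 in W83S, 1.85 in W89S and 1.89 in W90S (log2 fold change -0.57, adjusted p = 0.393 from limma). Without K82S it fell past the threshold, by 0.82 on the log2 scale (adjusted p = 0.0325 from limma). That was the 1 call among these 13 genes, where 8.88% of all rows were called lower. Slc7a5 was chosen after its values were seen, as was Slc7a1, a carrier of dibasic amino acids. Slc7a1 had 1.20 to 1.47 FPKM in KO and 1.67 to 2.08 FPKM in WT.

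Marker lists of other cells also differed in mean. Of 6 crypt and proliferation genes tested, 6 had a lower mean in KO (median log2 fold change -0.80). The most abundant was Olfm4 of the crypt base, which measured 3.98 FPKM in K79S, 20.1 in K82S and 12.8 in K86S, against 24.8 in W83S, 45.6 in W89S and 61.3 in W90S. Pcna of dividing cells was at 15.3 to 26.6 FPKM in KO and 25.3 to 26.2 FPKM in WT. Of 10 absorptive enterocyte genes 8 had a higher mean in KO (median 0.21), and of 8 general epithelial genes 5 (median 0.15). The most abundant were Fabp2 (log2 fold change -0.01) and Anpep (0.70) of the first list, and Krt8 (0.16) and Epcam (0.42) of the second. Immune cell genes were higher in mean for 6 of 8 (median 0.51), and the most abundant were Igha (0.60) and Jchain (0.62) of plasma cells. Stromal genes were higher in mean for 5 of 5 (median 0.25), and the most abundant were Acta2 (0.25) and Vim (0.70). Secretory cell genes were higher in mean for 3 of 7 (median -0.25), and the most abundant were Tff3 (-0.25) of goblet cells and Defa24 (-1.77) of Paneth cells. Other goblet cell genes had the opposite sign, as Muc2 (1.79) and Fcgbp (0.80), each with all KO above all WT. Muc2 was at 77.3 to 160 FPKM in KO. In WT it was at 68.3 FPKM in W83S, 7.03 in W89S and 68.5 in W90S, so W89S weighs heavily in its fold change. By limma none of these 44 genes was called with all libraries, and 8 had an unadjusted p under 0.05, beside 12.5% of all rows. Without K82S, Mki67 of dividing cells passed with a log2 fold change of -1.28 (adjusted p = 0.0355 from limma) and Cd3e of T cells with 0.69 (adjusted p = 0.0367). In that setting 8.88% of all rows were called lower and 0.4% higher. The summed level was 25.2 to 62.5 FPKM in KO and 62.6 to 112 FPKM in WT for the crypt list, and 12233 to 19059 FPKM and 11714 to 18234 FPKM for the enterocyte list. Their part in the members' differences was not tested. When each library was divided by the 8 general epithelial genes, the median log2 fold change of the members was 0.32 and 0 of 10 had all KO above all WT (3.1% of all rows did).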

How the data were processed

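RNA of 6 mice (3 KO, 3 WT) was analysed. Per the paper's methods and the labels, single-end reads of 50 bp were trimmed (trim-galore), aligned to mm10 (HISAT2) and assembled (StringTie). The values, as the authors deposited them, are FPKM, 1 per gene and library. Column sums were 393152 to 465901 FPKM in KO and 473383 to 495362 FPKM in WT, so each KO sum was below each WT sum. Of 22700 rows, 20061 to 21679 were above 0. Tool versions, strand and whether a further normalization was applied are not given in the sources used here. FPKM hold no read counts, and the low values gave no clear step in every library, so no counting error is given. Columns not mapped to a sample numbered 0.

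In the deposited table most identifiers stand beside other genes' values (12396 of the 12402 placed, while 6 stood on their own row). Identifiers were ranked by K79S beside them and rows by W83S, both descending, and an identifier was placed at its rank plus an offset of -2 to 3, in 12 stretches of ranks. Identifiers outside these were dropped, which left 12402. Of the members 7 had an offset of 0 and 3 an offset of -1. The offsets had been read from printed decimals, where at most 6 mark a single transcript. After placement 99.7% of 3649 genes with 1 annotated transcript and 5.80% of 8748 with several had at most 6, against 33.2% and 33.5% as deposited. This is not an independent check.

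Of all rows, 13089 reached an FPKM of 1 in at least 2 libraries and were kept, and all 10 members were kept. The fit used limma 3.58.1 (R 4.3.3) on log2(FPKM + 1), with eBayes and its trend option, no covariate and Benjamini-Hochberg adjustment over all rows kept. Such fold changes understate changes of weakly expressed genes. The fit was also run on simulated data with independent noise and changes larger than those of any member. That run does not measure how well differences of the members' size are found. Exact two-sided permutation tests used scipy 1.17.1 in Python 3.11.15. Alternatives were a pseudocount of 0.1, no filter, rescaling to a common FPKM sum, scaling to 8 epithelial genes, array weights, no trend, identifiers as deposited and each library left out. Leaving out K82S with W83S or with W89S was added after the data were seen.

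The members, lists and tests were chosen with earlier results of these data known. Named genes were the members, the 5 most abundant other transporters, the 2 most abundant genes of each marker list, called rows and the nearest profiles. Lct, Slc6a20b, Slc7a1, Slc7a5, Cubn, Muc2, Fcgbp, Mki67 and Cd3e fall outside this rule and were chosen after their values were seen. Of the 26 other transporters 12 were not analysed here. A result for 1 named gene is not reported here. Promoter sequences are RefSeq's (GRCm38.p6).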

Additional observations from a re-analysis of the deposited data

How the results depend on the processing

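With 3 libraries a group, the 95% intervals of the members were 0.86 (Slc3a1) to 3.56 (Slc36a1) wide on the log2 scale. The read count behind each value is not given. By the mapped reads that the paper lists, K86S and K79S were the shallowest libraries and W83S the deepest. No member was called by limma under any alternative. Leaving out 1 library gave 0 to 1184 called rows, against 1 with all libraries, and the 1184 came from leaving out K82S (51 higher, 1133 lower). It also gave 1 to 7 members with all KO above all WT, a count that leaving out a library cannot lower. Over all rows the count was 999 to 1621, of 12764 to 12951 rows tested, against 772 of 13089 with all libraries. Called rows numbered 0 with a pseudocount of 0.1 (1636 at an unadjusted p under 0.05), 2 with array weights, 1111 without K82S and W83S and 3 without K82S and W89S. Members with all KO above all WT numbered 2 after rescaling to a common FPKM sum (14.3% of rows) and 0 after scaling to epithelial genes (3.1%). They numbered 0 with identifiers as deposited (5.9% of rows) and 7 when K82S was left out with W83S (14.4%) or W89S (19.4%). Rescaling moved the median log2 fold change of all rows from -0.06 to 0.09, and the members' median stood 0.48 above it, against 0.45 without rescaling. The log2 fold changes of Slc15a1, Slc6a19, Slc6a20a, Slc7a9, Slc3a1 and Slc7a7 kept their direction in all alternatives with placed identifiers. Slc1a1 turned to -0.10 without K82S and W83S. With 1 library left out, Slc3a2 ran from -0.087 to 0.57, Slc7a8 from -0.45 to 0.74 and Slc36a1 from -0.61 to 0.67. Slc7a8 was also 0.17 after rescaling, 0.37 with array weights, 0.75 without K82S and W83S and 0.52 without K82S and W89S. Slc36a1 was -0.076 with array weights and -0.37 without K82S and W89S. With identifiers as deposited, which hold other genes' values, Slc15a1 was -0.23, Slc6a20a -0.37, Slc7a9 -0.15, Slc1a1 -0.27, Slc3a2 -0.54 and Slc36a1 -0.017. Slc6a19 was then 0.21, Slc3a1 0.32, Slc7a7 0.60 and Slc7a8 -0.87, also from other genes' values. The ratio of Slc7a9 to Slc3a1 was then -0.48. With 1 library left out, the differences of the ratios ran from -0.068 to 0.24 for Slc7a9 to Slc3a1, from -0.20 to 0.32 for Slc7a7 to Slc3a2 and from -0.38 to 0.17 for Slc7a8 to Slc3a2. The causes were not tested. No paired analysis was possible because the labels do not say which mice form a pair.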
